A study of Homo sapiens with 12 samples.

Results

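Interferon-stimulated genes and RNA sensing genes were examined in the human colorectal cancer line Colo320DM, in clones with and without stable knockdown of TET1. The clones were also treated with 5-aza-dC (5-aza-2'-deoxycytidine), which blocks the enzymes that methylate DNA. The set comprised 50 genes, chosen by name for their known place in the antiviral response, and every probe carrying one of these gene names was taken. This gave 72 probes of the 50599 on the array and 50 of 23676 gene symbols, and each gene was followed by the probe with the highest mean signal over all arrays. Expression was measured on 12 one-colour Agilent arrays in 4 groups of 3 clones. The control groups were negative control clones 1 to 3, which carried the pcDNA6.2-GW/EmGFP-miR-neg plasmid, and the knockdown groups were TET1 knockdown clones 1 to 3, which carried a vector encoding an artificial microRNA against TET1. For each clone there was 1 array of mock-treated cells and 1 array of cells kept for 72 h in 1 µM 5-aza-dC. All 6 clones had been transfected, selected with G418 and established as stable clones, so every difference between clone types also holds differences between individual clones. Knockdown clones 1 and 2 shared one artificial microRNA and clone 3 carried another.

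Cells detect foreign or misplaced RNA with sensors such as RIG-I (DDX58) and MDA5 (IFIH1), which signal through the adaptor MAVS to the factors IRF3 and IRF7. These switch on type I interferon, which acts through factors such as STAT2 and IRF9 on a short promoter motif, the interferon-stimulated response element (ISRE), to induce a broad set of antiviral effectors. Inhibitors of DNA methylation are known to induce interferon-stimulated genes in several cancer cell lines, and TET1 oxidises 5-methylcytosine, a step toward removing DNA methylation.

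TET1 itself was read by a probe at chr10:70332072-70332131 (hg19). Its log2 signal, given here and throughout relative to the 75th percentile of the same array, was 4.56, 4.23 and 4.67 in mock control clones 1 to 3 and 3.59, 3.51 and 3.57 in mock knockdown clones 1 to 3, a difference of -0.93 (limma adjusted p = 0.276) without overlap. After 5-aza-dC it was 4.06, 4.42 and 4.16 in control clones and 2.98, 4.31 and 3.35 in knockdown clones, so the treated array labelled knockdown clone 2 lay among the treated control clones. Results between treated clones are therefore given with and without that array. The arrays lay on 2 slides. On slide 1 lay mock control clones 1 and 2, every knockdown clone after mock treatment, and clones 1 and 3 of the treated knockdown group, and slide 2 held the rest, so values with slide as a block are given beside the results. Of 10 colorectal epithelial markers 5 were above background on all arrays and 1 on none, and their linear signals summed to 228 to 648 per array, whereas leukocyte markers summed to 1.57 to 6.74 in mock arrays and 2.9 to 11.7 in treated arrays. PTPRC and CD14 were above background on all 12 arrays, NKG7 on none, and the macrophage marker CD68 was called higher after 5-aza-dC (1.53). Their part in the results was not tested. In bulk RNA, fewer cells expressing a gene and less RNA per cell cannot be told apart.

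Of the 50 genes, 25 (50%) were well above background on all 12 arrays, 20 (40%) on some and 5 (10%) on none. Over all gene symbols the corresponding shares were 54.9% on all arrays and 22.1% on none. The 5 without signal above background on any array were IFNB1, encoding interferon beta, the chemokine CXCL10, the oligoadenylate synthetase OAS1, its relative OASL, and RSAD2 (viperin). IFNB1 ranged from -6.59 to -5.27 and CXCL10 from -6.43 to -4.86 over the arrays. The interferon of the set was thus not measurable in any condition, whereas 5 of the 6 RNA sensing genes, namely DDX58, IFIH1, DHX58, MAVS and EIF2AK2, had signal on every array. Per array, the number of members above background was 38, 38 and 32 in mock control clones and 30, 32 and 32 in mock knockdown clones. After 5-aza-dC it was 41, 38 and 36 in control clones and 39, 35 and 36 in knockdown clones, and in each clone except control clone 2 it was higher than after mock treatment.

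**Figure D1:**
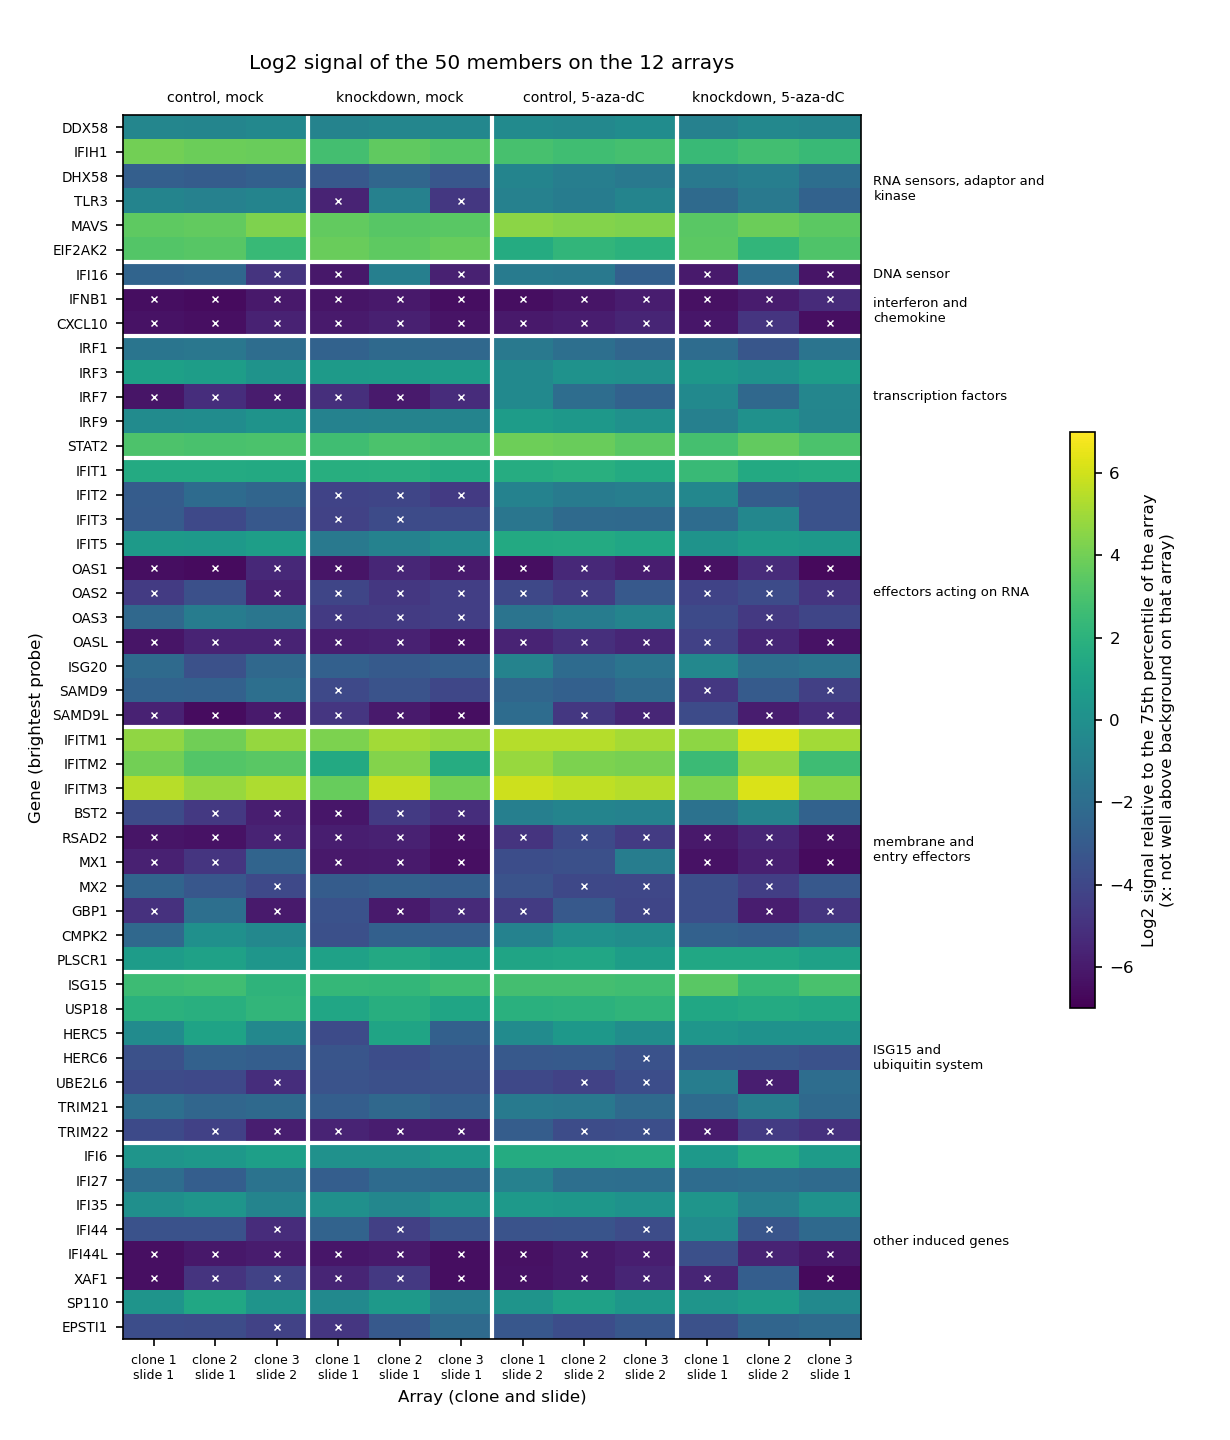
Heat map of the log2 signal relative to the array's 75th percentile (colour) for the 50 genes (vertical axis, grouped by role) on the 12 arrays (horizontal axis), with a cross where the probe was not well above background on that array. IFNB1, CXCL10, OAS1, OASL and RSAD2 carry a cross on all arrays, whereas IRF7 carries crosses on the mock arrays and none on the treated arrays.

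Promoter windows of 300 bases, from 250 before to 50 after a transcription start, were taken from RefSeq (GRCh38.p14). Windows were found for 40 of the 50 genes (53 windows), DDX58 under its current symbol RIGI, and the others, among them IRF7, DHX58 and IFIT2, are named only. The ISRE core, searched on both strands as GAAA followed after any 2 bases by GAAA, with overlaps allowed, was present in 30 of the 53 windows (56.6%) and in 1255 of all 35116 windows (3.57%). It occurred in at least 1 window of 25 of the 40 genes (62.5%). The core of the gamma-activated sequence, TTCNNNGAA, which reads the same on both strands, was present in 15 of the 53 windows (28.3%) and in 7.66% of all windows. The windows of the set had a median of 8 CG dinucleotides, the bases at which DNA is methylated, against 14 over all windows. A letter match describes the sequence and is no proof of a used site.

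The windows of 6 genes that carry the results below are shown 5′ to 3′ on the strand of the gene, with matches to the ISRE core on either strand in capitals. BST2 (chr19:17405581-17405880, minus strand) rose after 5-aza-dC, and 2 overlapping matches stood in a window with only 2 CG dinucleotides. IFI6 (chr1:27672143-27672442, minus strand) and IFIT5 (chr10:89414318-89414617, plus strand) also rose, each with 3 matches and with 9 and 16 CG dinucleotides.
BST2: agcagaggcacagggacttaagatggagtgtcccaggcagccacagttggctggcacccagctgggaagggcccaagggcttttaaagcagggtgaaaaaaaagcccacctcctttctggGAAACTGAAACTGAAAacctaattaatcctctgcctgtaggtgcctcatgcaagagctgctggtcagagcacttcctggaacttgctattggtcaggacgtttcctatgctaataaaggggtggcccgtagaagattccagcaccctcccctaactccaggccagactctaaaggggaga
IFI6: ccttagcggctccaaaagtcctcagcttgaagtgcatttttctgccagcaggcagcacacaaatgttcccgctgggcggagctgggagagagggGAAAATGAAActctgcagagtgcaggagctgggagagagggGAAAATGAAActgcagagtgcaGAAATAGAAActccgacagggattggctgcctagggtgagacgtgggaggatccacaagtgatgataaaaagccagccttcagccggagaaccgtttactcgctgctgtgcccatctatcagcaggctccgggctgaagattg
IFIT5: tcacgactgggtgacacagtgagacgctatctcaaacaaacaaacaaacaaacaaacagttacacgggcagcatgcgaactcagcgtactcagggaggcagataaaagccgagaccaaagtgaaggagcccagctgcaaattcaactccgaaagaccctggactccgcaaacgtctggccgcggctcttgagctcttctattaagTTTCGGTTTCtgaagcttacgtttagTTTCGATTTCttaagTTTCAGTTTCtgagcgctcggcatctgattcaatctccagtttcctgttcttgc

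IFIH1 (chr2:162318635-162318934, minus strand) fell after 5-aza-dC and had 3 matches in its window. OAS3 (chr12:112938224-112938523, plus strand) differed between clone types and had 2 matches among 20 CG dinucleotides. TLR3 (chr4:186068906-186069205, plus strand) varied between knockdown clones and had 1 match.
IFIH1: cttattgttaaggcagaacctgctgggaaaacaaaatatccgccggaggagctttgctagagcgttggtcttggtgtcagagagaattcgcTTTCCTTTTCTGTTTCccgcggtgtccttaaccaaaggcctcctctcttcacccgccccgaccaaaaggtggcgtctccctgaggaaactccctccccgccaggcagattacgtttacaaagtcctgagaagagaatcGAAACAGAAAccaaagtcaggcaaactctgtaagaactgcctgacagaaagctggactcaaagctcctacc
OAS3: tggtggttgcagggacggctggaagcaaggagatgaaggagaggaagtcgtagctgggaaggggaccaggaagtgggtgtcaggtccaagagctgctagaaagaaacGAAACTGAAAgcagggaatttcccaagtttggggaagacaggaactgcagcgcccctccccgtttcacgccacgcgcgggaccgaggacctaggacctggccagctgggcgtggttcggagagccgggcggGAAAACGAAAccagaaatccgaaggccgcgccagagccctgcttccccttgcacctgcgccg
TLR3: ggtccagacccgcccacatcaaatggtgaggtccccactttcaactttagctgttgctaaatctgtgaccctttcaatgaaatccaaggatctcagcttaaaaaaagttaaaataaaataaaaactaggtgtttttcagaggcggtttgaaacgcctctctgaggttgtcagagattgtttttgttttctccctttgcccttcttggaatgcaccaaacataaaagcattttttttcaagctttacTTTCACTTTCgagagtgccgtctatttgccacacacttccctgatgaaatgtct

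The first comparison asked how 5-aza-dC moved these genes. Over all 6 clones, 40 genes of the set were tested. Of these, 8 rose, namely IRF7, BST2, DHX58, IFIT2, IFIT3, IFIT5, ISG20 and IFI6, and 2 fell, namely IFIH1 and EIF2AK2 (limma, adjusted p under 0.05). Of all 16468 genes tested, 8.6% rose and 4.48% fell in this comparison. The 10 not tested were the 5 without signal and OAS2, SAMD9L, TRIM22, IFI44L and XAF1, which were above background on fewer than 3 arrays. The median log2 difference was 0.47 over the tested members and 0 over all genes, and 33 members had a positive and 7 a negative difference. When arrays were centred on their median in place of the 75th percentile, the median of all genes was -0.24, and DDX58, IFIT1, USP18, IFI35 and SP110 went from a small positive to a small negative difference. Treated exceeded mock in all 6 clones for 16 of the 40 members, against 15.3% of all genes, and lay below mock in all 6 for 3 members (IFIH1, EIF2AK2 and MX2), against 15.8% of all genes. Within control clones, 5 members rose and 1 fell of 39 tested (all genes 4.63% and 0.959%). Within knockdown clones, 2 rose and none fell of 36 tested (all genes 2.39% and 0.0128%). There 9 passed an unadjusted p of 0.05, a count given without its share over all genes. Without the treated array labelled knockdown clone 2, or without either of the other treated knockdown arrays, none was called within knockdown clones, whereas over all clones 10 were called without it, 9 of them among those named above. The lost one was EIF2AK2, at -0.72. Mock and treated arrays of a number come from the same clone, and with clone as a block 17 members were called over all clones, where STAT2, IFITM1, IFITM2, IFITM3, MX1, TRIM21 and IFI44 were added. The share of all genes called with that block is not given here, so the rise cannot be read as particular to the members.

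IRF7, the transcription factor that amplifies interferon production, had the largest called difference of the set. Its probe (hg19 chr11:612643-612702) read -6.21, -5.16 and -5.96 in mock control clones and -5.11, -6 and -5.22 in mock knockdown clones. After 5-aza-dC it read -0.37, -1.97 and -2.59 in control clones and -0.35, -2.26 and -0.57 in knockdown clones. All treated arrays lay above all mock arrays, and no mock array was above background. The difference over all clones was 4.26 on the log2 scale (SE 0.44, limma adjusted p = 0.000142). With slide as a block it was 4.78. IRF7 passed the filter only through the treated arrays, where it was high. The mock values were readings at background, so their spread, which enters the SE and p-value, need not be a spread of expression. As the mock signal was only a bound, IRF7 was at least 5.61-fold higher in treated control clones and at least 7.40-fold higher in treated knockdown clones.

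The other transcription factors moved little. STAT2, which acts downstream of the interferon receptor, was 3.07, 2.96 and 3.03 in mock and 3.92, 3.79 and 3.43 in treated control clones, and 2.69, 3.06 and 2.86 in mock and 2.85, 3.61 and 3.04 in treated knockdown clones. It was higher in all 6 clones, and its difference of 0.49 did not pass the test (limma adjusted p = 0.067), and passed it with clone as a block (adjusted p = 0.0406). Mock and treated values did not overlap in control clones and overlapped in knockdown clones.

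IRF9, the DNA-binding partner of STAT2, was -0.26, -0.18 and 0.19 in mock and 0.72, 0.47 and 0.07 in treated control clones, and -0.77, -0.76 and -0.66 in mock and -0.88, 0.06 and -0.62 in treated knockdown clones. IRF3, the factor activated directly by RNA sensing, was 0.97, 0.79 and 0.17 in mock and -0.35, 0.11 and 0.01 in treated control clones, and 0.61, 0.69 and 0.76 in mock and 0.42, 0.13 and 0.75 in treated knockdown clones. IRF1, which is induced by interferon gamma, was -1.56, -1.44 and -2.02 in mock and -1.36, -1.86 and -2.39 in treated control clones, and -2.62, -2.24 and -2.26 in mock and -2.06, -3.23 and -1.62 in treated knockdown clones. Mock and treated knockdown clones overlapped for IRF1, IRF3 and IRF9, and the differences over all clones were -0.06 for IRF1, -0.49 for IRF3 and 0.38 for IRF9, none of them called.

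Among the RNA sensors the 3 related helicases went different ways. DHX58 (LGP2), which modulates the other helicases, was -2.74, -2.91 and -2.72 in mock and -0.71, -1 and -1.35 in treated control clones, and -3.09, -2.39 and -3.18 in mock and -1.33, -1.02 and -1.95 in treated knockdown clones. Treated arrays lay above all mock arrays, by 1.61 over all clones (SE 0.21, limma adjusted p = 0.000581; slide as a block 1.43).

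IFIH1 (MDA5), a sensor of long double-stranded RNA, was 4, 3.87 and 3.8 in mock and 2.94, 2.72 and 2.87 in treated control clones, and 2.81, 3.58 and 3.31 in mock and 2.5, 2.78 and 2.48 in treated knockdown clones. It was lower after treatment in every clone, by 1.06, 1.15 and 0.93 in control clones and by 0.31, 0.8 and 0.83 in knockdown clones. IFIH1 fell by 0.85 over all clones (SE 0.15, limma adjusted p = 0.00462), and the difference was -0.88 with slide as a block. DDX58 (RIG-I), a sensor of short RNA with a triphosphate end, ranged from -0.86 to -0.21 over all 12 arrays, and its difference was 0.1 (limma adjusted p = 0.58). A second DDX58 probe gave 0.59 over all clones (limma adjusted p = 0.0899, with clone as a block 0.0246) and 0.75 in control clones, where treated arrays lay above all mock arrays.

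EIF2AK2 (PKR), the kinase that halts translation on binding double-stranded RNA, was 3.24, 3.39 and 2.42 in mock and 1.64, 2.2 and 2 in treated control clones, and 3.79, 3.5 and 3.75 in mock and 3.48, 2.2 and 3.15 in treated knockdown clones. It was lower after treatment in every clone and fell by 0.9 over all clones (SE 0.25, limma adjusted p = 0.0386). The arrays of slide 2 were the lower ones within each group that spanned both slides, and with slide as a block the difference was -0.4 (limma adjusted p = 0.144). A second EIF2AK2 probe gave -0.95 and stayed called with slide as a block (-0.62, limma adjusted p = 0.0313).

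MAVS, the adaptor on mitochondria, was 3.51, 3.65 and 4.29 in mock and 4.54, 4.39 and 4.32 in treated control clones, and 3.62, 3.38 and 3.44 in mock and 3.44, 3.83 and 3.48 in treated knockdown clones. Its difference of 0.35 was not called and was 0.08 with slide as a block. The other MAVS probes gave -0.7 to 0.31 over all clones, none of them called. With slide as a block some of these were called lower, at -0.6 (limma adjusted p = 0.0407) and -0.65 (adjusted p = 0.033), and the rest were not called. TLR3, the endosomal receptor for double-stranded RNA, was -0.7, -0.84 and -0.71 in mock and -0.87, -1.14 and -0.66 in treated control clones, and -5.62, -0.84 and -4.71 in mock and -2.18, -1.33 and -2.6 in treated knockdown clones. Treated minus mock was therefore 3.44 and 2.1 in knockdown clones 1 and 3 and -0.49 in clone 2, and the mean difference of 0.77 was not called.

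Of the effectors that act on RNA, 7 of 11 were tested, 4 rose and none fell, with a median of 1. IFIT2, which binds RNA and restrains translation, was -2.9, -2.08 and -2.42 in mock and -0.79, -1.16 and -1.02 in treated control clones, and -4.17, -4.07 and -4.62 in mock and -0.54, -2.93 and -3.47 in treated knockdown clones. All treated arrays lay above the mock arrays of the same clone type. The difference over all clones was 1.73 (SE 0.43, limma adjusted p = 0.0261; slide as a block 1.94, adjusted p = 0.0606).

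IFIT3, a partner of IFIT1 and IFIT2, was -2.98, -3.92 and -3.15 in mock and -1.49, -2.15 and -2.21 in treated control clones, and -4.26, -3.78 and -3.79 in mock and -2.07, -0.51 and -3.47 in treated knockdown clones. Its difference was 1.66 (SE 0.43, limma adjusted p = 0.029), and 1.03 with slide as a block (adjusted p = 0.175). Treated knockdown clone 2 was the highest and clone 3 the lowest of the treated arrays.

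ISG20, an exonuclease for single-stranded RNA, was -2.15, -3.54 and -2.25 in mock and -0.72, -2.11 and -1.63 in treated control clones, and -2.73, -3.05 and -2.8 in mock and -0.49, -1.91 and -1.59 in treated knockdown clones. It was higher after treatment in every clone, with a difference of 1.35 (SE 0.34, limma adjusted p = 0.0286; slide as a block 1.42, adjusted p = 0.0824). IFIT5, which binds RNA with a 5′ triphosphate, rose by 1.00 (SE 0.19, limma adjusted p = 0.00703; slide as a block 0.83). IFIT1, which recognises foreign RNA caps, was well above background on all arrays and ranged from 1.49 to 2.48, with the highest value in treated knockdown clone 1 and a difference of 0.14 that was not called.

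Of the membrane and entry effectors, 9 of 10 were tested and BST2 was the one called. BST2 (tetherin), which holds budding virus at the cell surface, was read at hg19 chr19:17513748-17513807, and gave -3.81, -4.69 and -5.84 in mock and -0.98, -0.7 and -0.78 in treated control clones, and -6.14, -4.63 and -5.16 in mock and -1.71, -0.72 and -2.62 in treated knockdown clones. All treated arrays lay above all mock arrays, and of the mock arrays only control clone 1 was above background. The difference was 3.79 (SE 0.41, limma adjusted p = 0.000196; slide as a block 3.83). In knockdown clones BST2 was at least 4.80-fold higher after treatment, and the background readings of mock arrays enter the SE and p-value. A second BST2 probe gave 2.28 over all clones (limma adjusted p = 0.0154), and in control clone 1 it read -2.14 after mock and -2.81 after 5-aza-dC.

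IFITM1, which blocks fusion of virus with the cell membrane, was higher in all 6 clones, from 4.68, 3.99 and 4.77 to 5.43, 5.44 and 5.12 in control clones and from 4.22, 5.05 and 4.81 to 4.64, 6.23 and 5.04 in knockdown clones. Its difference of 0.73 was not called (limma adjusted p = 0.105), and was called with clone as a block (adjusted p = 0.0496). MX2, a dynamin-like restriction factor, was -2.47, -3.22 and -3.91 in mock and -3.41, -3.94 and -4 in treated control clones, and -2.9, -2.63 and -2.82 in mock and -3.62, -4.39 and -3.14 in treated knockdown clones. It was lower after treatment in each clone, and the difference of -0.76 was not called (limma adjusted p = 0.0916). GBP1 (0.27), a guanylate-binding protein, and PLSCR1 (0.24), a phospholipid scramblase, were not called either.

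None of the 6 genes tested in the ISG15 and ubiquitin system was called, with a median of 0.43. ISG15, the ubiquitin-like modifier itself, was 2.59, 2.73 and 2.08 in mock and 2.79, 2.79 and 2.69 in treated control clones, and 2.34, 2.27 and 2.66 in mock and 3.42, 2.39 and 2.99 in treated knockdown clones. Its difference of 0.4 was not called (limma adjusted p = 0.175) and was 0.75 with slide as a block (adjusted p = 0.0122). USP18, which removes ISG15 and damps interferon signalling, had a difference of 0.02. The ligases HERC6 (-0.02) and TRIM21 (0.67) were not called, although TRIM21 was with clone as a block (limma adjusted p = 0.0441). UBE2L6, the conjugating enzyme for ISG15, was -3.8, -3.93 and -5.15 in mock and -3.98, -4.23 and -3.69 in treated control clones, and -3.43, -3.6 and -3.51 in mock and -1.07, -5.8 and -1.99 in treated knockdown clones. Treated knockdown clones 1 and 3, both on slide 1, thus held the highest UBE2L6 values and clone 2, on slide 2, the lowest. The UBE2L6 difference was 0.45 (limma adjusted p = 0.673) and 1.84 with slide as a block (adjusted p = 0.0391).

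Among the other induced genes, 1 of 6 tested was called. IFI6, a small mitochondrial protein induced by type I interferon, was 0.29, 0.44 and 0.9 in mock and 1.61, 1.64 and 1.69 in treated control clones, and 0.06, 0.08 and 0.48 in mock and 0.52, 1.56 and 0.71 in treated knockdown clones. It rose by 0.91 (SE 0.2, limma adjusted p = 0.0142; slide as a block 0.54, adjusted p = 0.0423). IFI44 reached -0.17 in treated knockdown clone 1 and lay between -5.24 and -2.21 on the other arrays, with a difference of 1.05 that was not called (limma adjusted p = 0.208), and was called with slide as a block (2.01, adjusted p = 0.033) or clone as a block (adjusted p = 0.0438). SP110, a nuclear body protein, was 0.22, 1.35 and 0.27 in mock and 0.22, 1 and 0.43 in treated control clones, and -0.36, 0.53 and -1 in mock and 0.29, 0.66 and -0.34 in treated knockdown clones, with a difference of 0.21. IFI27 (0.48), IFI35 (0.21) and EPSTI1 (0.58) were not called. IFI44L was above background only in treated knockdown clone 1 and XAF1 only in treated knockdown clone 2.

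**Figure D2:**
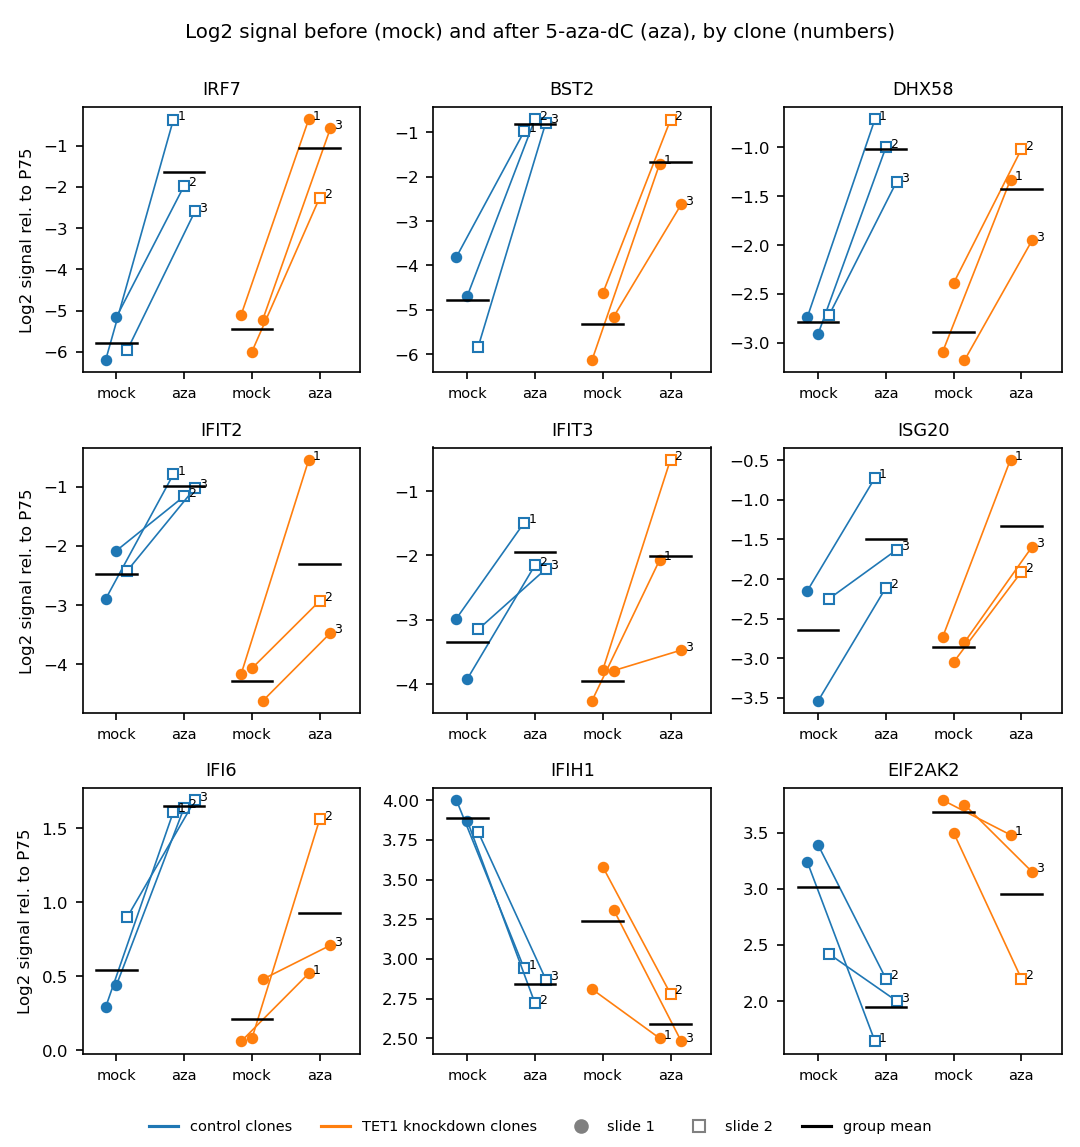
Log2 signal relative to the array's 75th percentile (vertical axis) after mock treatment and after 5-aza-dC, with a line and a number for each of the 6 clones (blue control, orange knockdown), filled circles for slide 1, open squares for slide 2 and black bars for group means, for the 10 called genes other than IFIT5. IRF7, BST2 and DHX58 rise in every clone, and IFIH1 and EIF2AK2 fall in every clone.

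**Figure D3:**
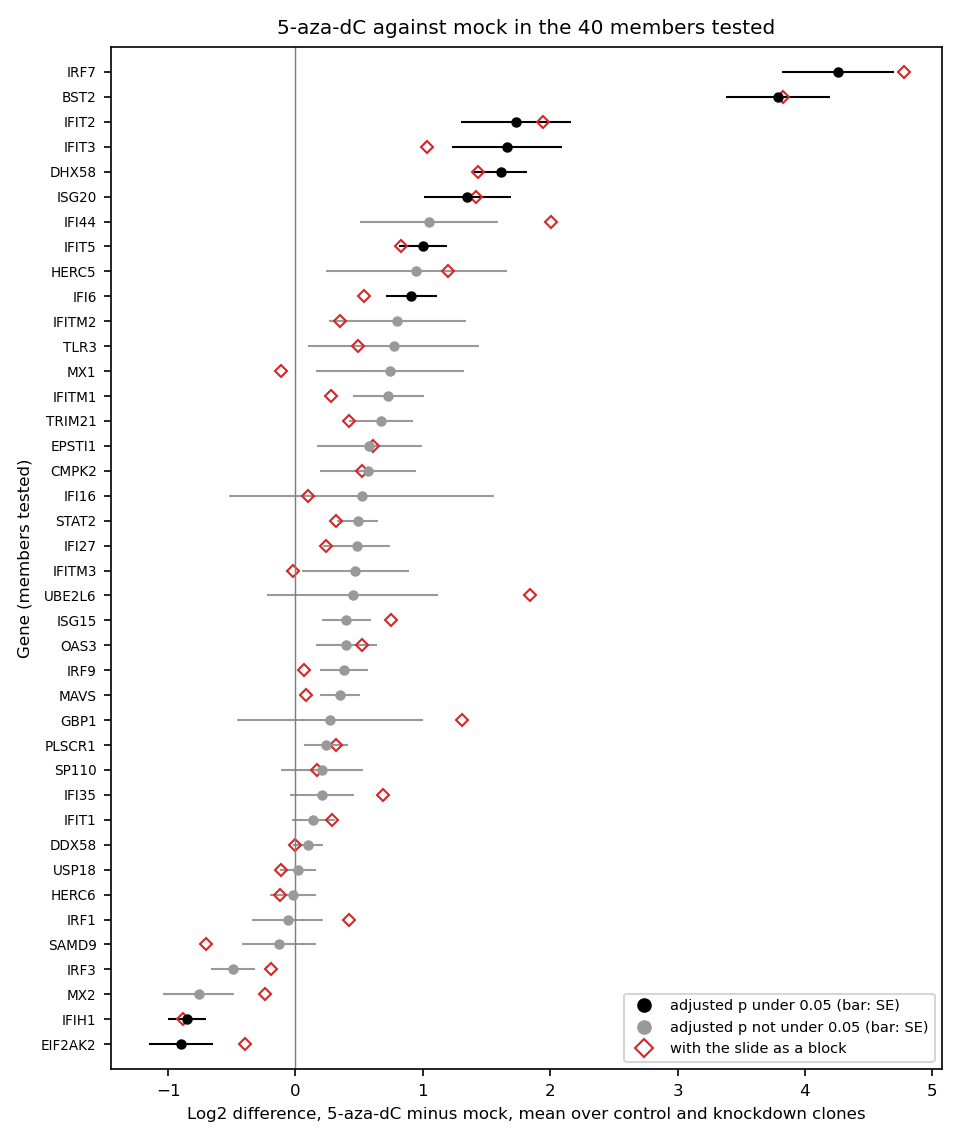
Log2 difference of 5-aza-dC minus mock over all 6 clones (horizontal axis) for the 40 genes tested (vertical axis), with bars of 1 SE, filled points for called genes and diamonds for the value with slide as a block. IRF7 at 4.26 and BST2 at 3.79 stand apart, and the other points lie between -0.9 and 1.73.

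Whether clone type altered the response was tested as an interaction on all 12 arrays. None of the 40 members passed (limma, 0 members also at an unadjusted p under 0.05), and 0.0243% of all genes were called higher and 0.0121% lower. The median interaction was -0.02 over the members and -0.05 over all genes. The IRF7 response was 5.84, 3.19 and 3.37 in control clones and 4.76, 3.74 and 4.65 in knockdown clones. The BST2 response was 2.83, 3.99 and 5.06 in control clones and 4.42, 3.91 and 2.54 in knockdown clones. Both ranges overlapped between clone types. With 3 clones of each type this does not show that the responses were alike.

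The second question was whether the genes differed once TET1 was reduced. After mock treatment, 1 of 36 members tested was called, OAS3, which was lower in knockdown clones, and none was called higher (all genes 0.133% lower and 0.0398% higher). After 5-aza-dC, 1 of 39 was called, again OAS3, and none higher (all genes 0.0704% lower and 0.0256% higher). The median difference was -0.39 over the members after mock treatment against 0.02 over all genes, and -0.41 after 5-aza-dC against -0.05. After mock treatment the 2 groups did not overlap for 12 members, of which 10 were lower in knockdown clones (all genes 9.89%) and 2 higher (all genes 12.6%). After 5-aza-dC, 11 members were lower without overlap (all genes 15.7%) and 2 higher (all genes 10.3%). An unadjusted p under 0.05 was reached by 10 members after mock treatment and 11 after 5-aza-dC, counts given without their share over all genes.

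OAS3, an oligoadenylate synthetase whose product activates RNase L, was read at hg19 chr12:113410131-113410190. It gave -2.29, -1.11 and -1.49 in mock control clones against -4.63, -4.54 and -4.4 in mock knockdown clones. After 5-aza-dC it gave -1.59, -1.12 and -0.71 in control clones against -3.87, -4.66 and -4.09 in knockdown clones. The groups were separate in both conditions, and knockdown clone 2 was low in both. The mock difference was -2.89 (SE 0.32, limma adjusted p = 0.0466), at least 4.98-fold lower, since no mock knockdown array was above background. OAS3 thus passed the filter after mock treatment only through the control clones, where it was high. The mock knockdown values were readings at background, so their small spread, which enters the SE and p-value, need not be a spread of expression. The treated difference was -3.06 (SE 0.32, limma adjusted p = 0.0443). With slide as a block the values were -2.82 (adjusted p = 0.185) and -3.52 (adjusted p = 0.0493). Without the treated array labelled knockdown clone 2 the difference was -2.84 (adjusted p = 0.00449). A second OAS3 probe was above background on no array.

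The 7 tested effectors that act on RNA, OAS3 included, had a median difference of -1.41 after mock treatment and -0.99 after 5-aza-dC, and none other than OAS3 was called. IFIT1 was on the higher side in knockdown clones in both conditions (0.18 and 0.17), and ISG20 after 5-aza-dC (0.16). IFIT5 was 0.62, 0.56 and 0.86 in mock control clones against -1.36, -0.82 and -0.25 in mock knockdown clones. After 5-aza-dC it was 1.48, 1.54 and 1.27 against 0.17, 0.7 and 0.44, so treated knockdown clones overlapped the mock control clones. SAMD9, a cytoplasmic restriction factor, was -2.6, -2.64 and -1.9 against -3.93, -3.43 and -4.03 after mock treatment and -2.38, -2.69 and -2.16 against -4.73, -2.99 and -4.36 after 5-aza-dC.

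For IFIT2 the mock groups were also separate (the values are given above), with a difference of -1.82 (limma adjusted p = 0.148), at least 2.79-fold lower. The mock differences were -1.49 for IFIT5 and -1.41 for SAMD9, both with a limma adjusted p of 0.276. IFIT1 and ISG20 overlapped between clone types in both conditions.

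Of the membrane and entry effectors, CMPK2, a mitochondrial nucleotide kinase whose gene lies beside RSAD2, was -2.28, 0.03 and -0.47 in mock control clones against -3.57, -2.69 and -2.77 in mock knockdown clones, and -0.79, 0.1 and -0.12 against -2.63, -2.82 and -2.06 after 5-aza-dC. The groups did not overlap in either condition, at differences of -2.1 (limma adjusted p = 0.371) and -2.23 (adjusted p = 0.089). MX1, a dynamin-like GTPase that blocks viral replication, was -5.69, -4.83 and -2.5 in mock control clones and -3.68, -3.58 and -1.09 in treated control clones. In knockdown clones MX1 lay between -6.61 and -5.79 on all 6 arrays. The treated difference of -3.45 was not called (limma adjusted p = 0.149), with at least 2.33-fold lower signal. Without the treated array labelled knockdown clone 2 it was -3.67 (limma adjusted p = 0.0242). No knockdown array was above background for MX1, which passed the filter only through the treated control clones, where it was high. The knockdown values were readings at background, so their spread, which enters both p-values, need not be a spread of expression. Control clone 3 held the highest value in both conditions.

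Among sensing genes and factors, mock values were lower in knockdown clones without overlap for IFIH1 (-0.65), TLR3 (-2.97), IRF1 (-0.7) and IRF9 (-0.64), and none of these differences was called. EIF2AK2 was higher without overlap after mock treatment (0.66, limma adjusted p = 0.468). After 5-aza-dC, DDX58 (-0.33), TLR3 (-1.15) and IRF9 (-0.9) were lower without overlap, and IRF3 (0.51) was higher, none of them called. With slide as a block these were -0.17, -0.44, -0.36 and 0.21. The second DDX58 probe was also lower without overlap (-1.12, limma adjusted p = 0.172), and the second EIF2AK2 probe was higher (0.92, adjusted p = 0.213). The MAVS probe followed here was lower without overlap after 5-aza-dC (-0.83, limma adjusted p = 0.173). The groups overlapped for each of the 6 other MAVS probes, and 1 of these was on the higher side (0.87). IFI6 was also lower without overlap after 5-aza-dC (-0.72), but with slide as a block its difference was -0.08 (limma adjusted p = 0.872). USP18 was lower without overlap in both conditions, with differences of -0.57 and -0.58 (slide as a block -0.47 and -0.46).

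**Figure D4:**
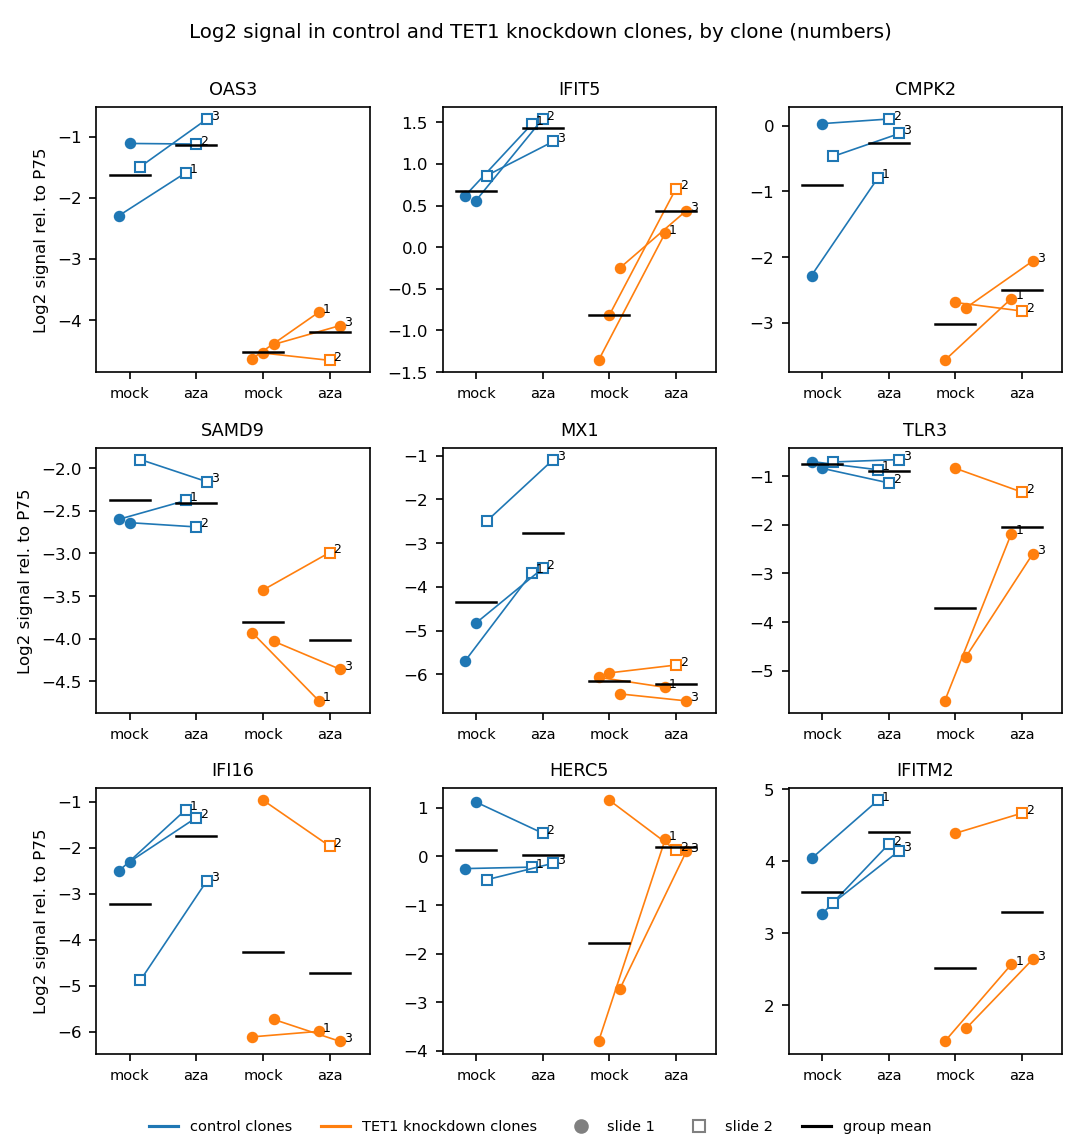
Log2 signal relative to the array's 75th percentile (vertical axis) of 9 genes in control and knockdown clones after mock treatment and after 5-aza-dC (horizontal axis), with a line and a number for each clone (blue control, orange knockdown), filled circles for slide 1, open squares for slide 2 and black bars for group means. OAS3 and CMPK2 are lower in all knockdown clones, whereas TLR3, IFI16, HERC5 and IFITM2 are low after mock treatment in knockdown clones 1 and 3 and not in clone 2.

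A group of genes split the knockdown clones themselves. After mock treatment, with all 3 knockdown arrays on slide 1, TLR3 was -5.62 and -4.71 in clones 1 and 3 and -0.84 in clone 2, which equalled control clone 2. IFI16, a sensor of DNA, was -2.5, -2.3 and -4.88 in mock and -1.17, -1.34 and -2.71 in treated control clones, and -6.11, -0.96 and -5.73 in mock and -5.99, -1.96 and -6.21 in treated knockdown clones. Knockdown clone 2 thus lay nearer to the control clones than to clones 1 and 3 for both sensors, in both conditions.

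HERC5, the ligase that attaches ISG15 to new proteins, was -0.25, 1.12 and -0.48 in mock control clones and -3.81, 1.16 and -2.73 in mock knockdown clones. After 5-aza-dC it was -0.22, 0.48 and -0.14 in control clones and 0.35, 0.13 and 0.11 in knockdown clones, so the split closed. The treated minus mock difference of HERC5 was 4.16 and 2.84 in knockdown clones 1 and 3 and lay between -1.03 and 0.34 in the other clones.

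IFITM2, a restriction factor of endosomes, was 4.04, 3.27 and 3.42 in mock and 4.85, 4.24 and 4.15 in treated control clones, and 1.5, 4.39 and 1.68 in mock and 2.57, 4.67 and 2.64 in treated knockdown clones. IFITM3, its close relative, was 3.73, 5.83 and 4.06 in mock knockdown clones and between 4.85 and 5.48 in mock control clones. For both genes clone 2 held the highest and clones 1 and 3 the lowest mock values. The IFITM genes share much of their sequence, and their probes may share signal. The differences between clone types after mock treatment were uncalled for TLR3, IFI16 (-1.04), HERC5 (-1.92), IFITM2 (-1.05) and IFITM3 (-0.67), with an SE of 1.16 for TLR3, 1.46 for IFI16 and 1.26 for HERC5. Clones 1 and 2 carried the same artificial microRNA and clone 3 another, and whether the split was related to the vector was not tested. Clones 1 and 3 were chosen for this description after their values were seen.

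Without the treated array labelled knockdown clone 2, 18 of 39 members tested differed between treated clones, against 31.4% of all 15491 genes. Of the 18, 15 were lower and 3 higher, counts given without the share of all genes in each direction. The lower ones were OAS3 and MX1 as above, SAMD9 (-2.13), IFI16 (-4.37), IFITM2 (-1.8), IFITM3 (-1.3), TLR3 (-1.5), CMPK2 (-2.08), IFIT5 (-1.12), MAVS (-0.96), IRF9 (-1.17), BST2 (-1.35), IFI6 (-1.03), USP18 (-0.65) and STAT2 (-0.77), and the higher ones were UBE2L6 (2.44), EIF2AK2 (1.37) and IFI44 (2.32). MX1, SAMD9 and IFI16 were above background on neither of the remaining treated knockdown arrays. They passed the filter only through the treated control clones, and their differences set that signal against background readings. In that comparison all control clones lay on slide 2 and both knockdown clones on slide 1, so slide and clone type cannot be told apart.

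**Figure D5:**
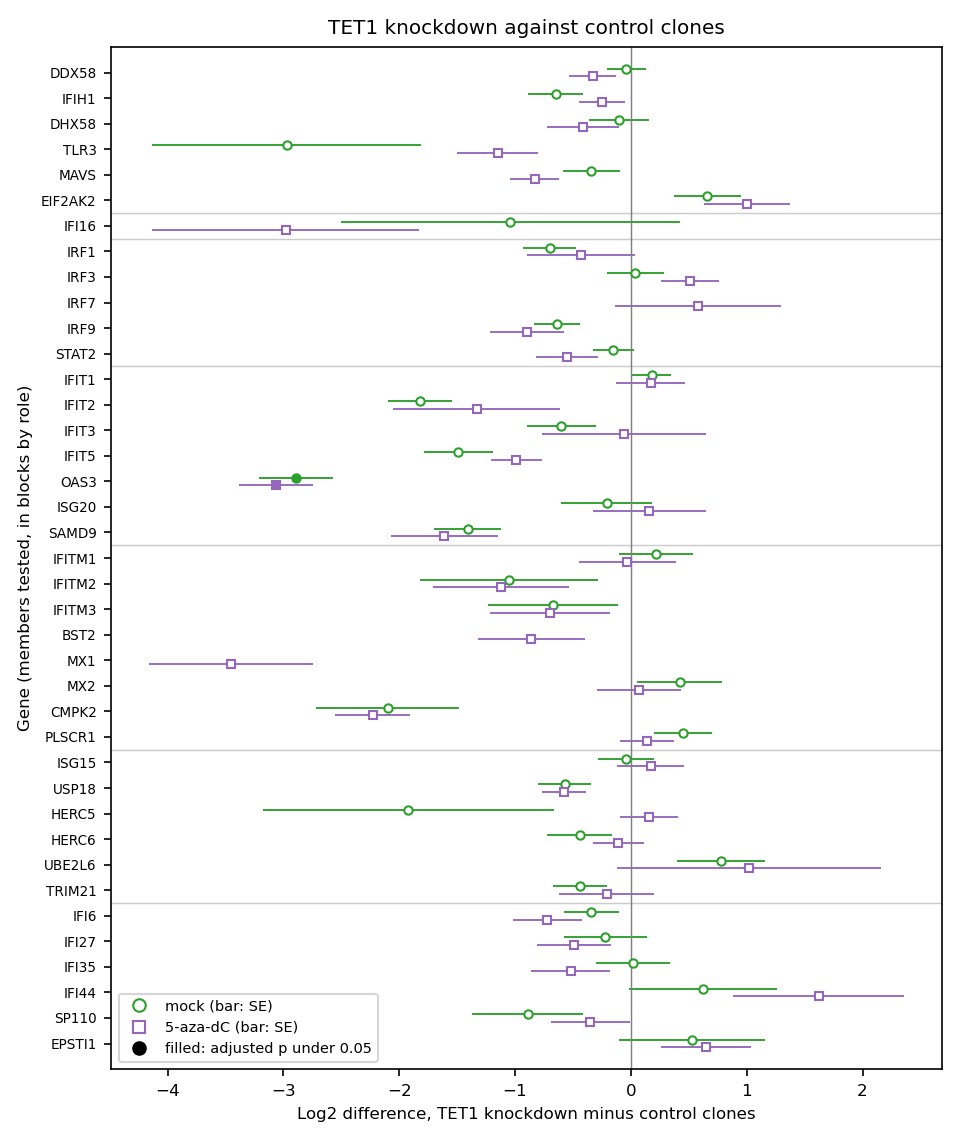
Log2 difference of knockdown minus control clones (horizontal axis) for the genes tested (vertical axis). Green circles are mock treatment and purple squares are 5-aza-dC, with bars of 1 SE and filled points for called genes. OAS3 is called in both conditions, at -2.89 and -3.06, and the points with the widest bars belong to genes that split the knockdown clones.

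Other genes of the pathway were taken from lists. Of 8 interferon ligands 7 were on the array, 6 of these were above background on no array, and the one tested, IL28A (interferon lambda), was not called. All 10 receptors and kinases, among them IFNAR1, IFNAR2, JAK1 and TYK2, were above background on every array, and only IL10RB, a chain of the interferon lambda receptor, rose after 5-aza-dC over all clones (0.81, limma adjusted p = 0.00829). Of 15 other sensing genes 7 were tested over all clones, and MYD88 and TMEM173 rose. MYD88, the adaptor of most Toll-like receptors, was -4.62, -4.45 and -4.78 in mock and -0.7, -1.9 and -1.79 in treated control clones, and -5.04, -4.63 and -4.75 in mock and -4.24, -2.62 and -3.4 in treated knockdown clones. The treated control clones lay above the treated knockdown clones, and MYD88 was at least 6.36-fold higher after 5-aza-dC in control clones. The difference over all clones was 2.27 (limma adjusted p = 0.000577).

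Of 24 further induced genes 19 were tested over all clones. NMI (2.31), APOL6 (1.81) and DDX60 (1.00) rose, and TRIM14 fell by 0.5. APOL6, an apolipoprotein L, was -5.7, -5.68 and -6.01 in mock and -2.33, -2.32 and -3.14 in treated control clones, whereas it lay between -6.49 and -5.22 on all arrays of knockdown clones. Its interaction of -2.79 was not called (limma adjusted p = 0.168). Of 5 negative regulators SOCS1 rose (1.05, limma adjusted p = 0.0132). None of 8 genes of double-stranded RNA handling was called over all clones, and ZC3HAV1 rose in control clones (1.12, limma adjusted p = 0.047). Of 10 NF-kappaB targets TNFAIP3 (1.00) and BIRC3 (1.18) rose. Endogenous retroviral genes, a source of double-stranded RNA in other systems, were represented by 6 of 11 names on the array, and neither of the 2 tested was called. No gene of these lists was called between knockdown and control clones in either condition.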

How the data were processed

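Total RNA was labelled with Cy3 and hybridised to Agilent SurePrint G3 arrays by the authors. The deposited scanner output gives spot intensity from Agilent Feature Extraction 10.7 (version per the submitters' processing notes), which per the file headers were background-corrected but not normalized across arrays. An alternative used the deposited table of the series, whose intensity values differed from these by at most 0.497%. The normalization used in the authors' later steps was not given in the sources used here.

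Of 62976 spots per array, 4259 control spots and 268 to 395 outlier spots were left out and no spot was saturated. Spots of a probe were averaged, 148 of the 50599 probes lacked a value on some array, and log2 signals were centred on the array's 75th percentile (240.7 to 359 in linear signal over probes). Per array, 45.74% to 52.88% of probes had signal well above background, and signal over background and 3 clones per group limited the precision. Testing required 50% or more of a probe's spots to be well above background on 3 or more of the arrays fitted. R 4.3.3 with limma 3.58.1 (lmFit, eBayes, two-sided tests) and the package data.table (version 1.17.8) was used. Pairwise comparisons used the 6 arrays concerned, whereas the mean 5-aza-dC effect and the interaction used all 12. P-values were adjusted by Benjamini-Hochberg across every probe tested and called under 0.05, and checked on simulated data. Each clone was hybridised once per condition, so p-values of the main fits measure the spread between clones. The main fits of 5-aza-dC and of the interaction did not pair the mock and treated arrays of a clone. In 5-aza-dC comparisons with clone as a block, p-values measure the spread of the treated minus mock differences between clones. For a probe above background on no array of the dimmer group, the fold is a bound. Where tested, such a probe passed the filter only through the brighter group, and its background readings enter the SE and p-value. On each array of the dimmer group the probe was set to the lowest signal of any probe well above background there, or to its own signal if larger, and the mean of these was compared with the mean of the brighter group.

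Values on every array are given for the sensing genes, interferon, chemokine and transcription factors, for every called member, and for the 10 further members with the largest difference among those with signal above background throughout the brighter group, in full where their groups separated. IFITM3 and IFI44 were described after their values were seen. The members, the lists of other pathway genes and the tests were chosen with earlier results of these data known. Mock and treated arrays of one number come from the same clone per the labels, and deviations from group means correlated at 0.213 to 0.316 in control and 0.431 to 0.525 in knockdown clones. Alternatives were other normalizations and filters, slide or clone as a block, single fits, leaving out each array, and the t-test of the methods. Sequences were searched and figures drawn with Python 3.11.15, numpy 2.4.6, pandas 2.3.3 and matplotlib 3.10.9. Gene names are those of the array files. Results of some listed genes are not reported here.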

Additional observations from a re-analysis of the deposited data

How the results depend on the processing

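Of 388 refits of the 20 called gene results, 269 kept the call, 119 lost it and 0 changed direction. The differences of IRF7, BST2, DHX58 and IFIH1 over all clones kept their call in every refit that tested them. IRF7 and BST2 were not tested where signal was required on every array. OAS3 kept it in 5 of 15 refits after mock treatment (limma adjusted p 0.00412 to 0.55) and in 7 of 18 after 5-aza-dC (0.00449 to 0.288). Between clone types after mock treatment, the 1 member called became 0 with quantile normalization, normexp with quantile normalization, keeping dim probes, requiring signal on every array, slide as a block and the methods' t-test. Between treated clones the 1 became 0 under the same settings other than slide as a block. For 5-aza-dC in control clones the 6 became 3 with dim probes kept, 2 with slide as a block (BST2 and IFI44) and 1 with the methods' t-test. In knockdown clones the 2 became 1 with quantile normalization or slide as a block, 0 with normexp, signal required on every array or the methods' t-test, and 4 with all 12 arrays in 1 fit. Over all clones the 10 became 6 with signal required on every array, where IRF7, BST2, IFIT2 and IFIT3 were not tested. The interaction gave 0 under every setting. The deposited series table changed none of these counts, and centring on the array median moved only the count over all clones, to 12. One joint model of the 12 arrays that held slide as a term, chosen after seeing the data, gave 1, 1, 5 and 3 for the 4 pairwise comparisons in the order above. These counts are given without the share of all genes called under the same setting. Except for the construction of the filters, the cause of these shifts was not tested.

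Clones pair mock with treated arrays. With the clone (replicate number) as a block, the count was 7 in control clones, 3 in knockdown clones and 17 over all clones, where IFI44, IFITM1, IFITM2, IFITM3, MX1, STAT2 and TRIM21 were added, and the interaction stayed at 0. With both clone and slide as blocks it was 0 in control clones, 2 in knockdown clones and 7 over all clones. Shares of all genes called with these blocks are not given here, so the counts are not set against all genes. Between clone types the numbers pair nothing, and the block gave 0 in both conditions, also together with slide.

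Leaving out 1 array at a time gave 0 to 1 members between mock clones (1 only without mock knockdown clone 2, and then TLR3 in place of OAS3), 0 to 18 between treated clones (18 without treated knockdown clone 2, 0 without any other array), 0 to 13 for 5-aza-dC in control clones (13 without mock control clone 3, 3 without mock control clone 1, 0 without any one treated array), 0 to 3 in knockdown clones (0 without any one treated array, 1 without mock clone 1 or mock clone 3) and 6 to 13 over all clones (6 without mock knockdown clone 1, treated control clone 1 or treated control clone 3). Without a mock control array OAS3 fell under the filter of 3 arrays above background and was not tested. Apart from the 18 without treated knockdown clone 2, these counts are given without the share of all genes called.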

Other observations

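Further induced genes that were not called between clone types nevertheless separated the groups by several log2 units. PARP9, an ADP-ribosyltransferase partner, was -0.23, -0.15 and 0.02 in mock control clones and -6, -1.62 and -2.28 in mock knockdown clones, and -0.02, 0.25 and 0.25 against -4.83, -1.36 and -2.22 after 5-aza-dC. Its differences were -3.18 (limma adjusted p = 0.404) and -2.96 (adjusted p = 0.191). DTX3L, whose product pairs with that of PARP9, had differences of -3.17 and -2.72. TRIM5, a capsid restriction factor, was -1.21, -1.95 and -2.69 in mock control clones and -4.21, -5.97 and -6.46 in mock knockdown clones, at least 3.99-fold lower (limma adjusted p = 0.232). After 5-aza-dC TRIM5 was -1.66, -1.83 and -2.24 against -3.52, -5.77 and -6.62 (difference -3.39, limma adjusted p = 0.154). PARP9 was lowest in knockdown clone 1 and TRIM5 in knockdown clone 3, in both conditions. All 3 genes were picked for description after their values were seen.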
